A study of Mus musculus with 6 samples.

Results

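B cell and plasma cell genes were examined in bulk RNA-Seq of inguinal white adipose tissue (iWAT), the subcutaneous fat depot of the mouse flank. The group holds 9 genes, *Igj*, *Cd79a*, *Cd79b*, *Ms4a1*, *Pou2af1*, *Tnfrsf17*, *Cr2*, *Prdm1* and *Pax5*, of 19509 gene symbols in the count table. It was selected on measured values, because the count of *Igj* was far higher in 1 library than in any other, and the question was whether that library also carried the other genes of B cells and plasma cells, and those of a lymph node. The values of *Igj* are therefore given as a description, with no test. Of the 9 genes, 8 had a row in the table, 6 had a count above 0 in any library and 4 had enough counts to pass the default filter of edgeR (*Igj*, *Cd79a*, *Pou2af1* and *Tnfrsf17*). *Cd79b* had no row under that symbol and is not analysed here.

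The study asked what the long noncoding RNA *Lexis* does in fat. All mice ate a Western diet for 12 weeks, and RNA-Seq libraries were made from 3 *Lexis*-AdWT and 3 *Lexis*-AdKO mice. Both groups carry the floxed *Lexis* allele on a C57BL/6 background, the AdKO mice also carry *Adipoq*-Cre, and the AdWT mice are littermates without Cre. The *Adipoq* promoter drives Cre in adipocytes, so other cells of the depot are not the target of the deletion, and neither age nor sex is labelled for these 6 samples.

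B cells carry an antibody on their surface as their antigen receptor, and after activation some become plasma cells, which shut down much of the B cell program and secrete antibody in bulk. Dimers and pentamers of secreted antibody are held together by the joining chain that *Igj* encodes, and the polymeric immunoglobulin receptor carries such antibody across epithelia. Fat holds B cells and plasma cells of its own, scattered and in small clusters, and the inguinal depot also encloses a lymph node, whose stroma and high endothelial venules have genes of their own. The study's methods say that the node was removed from iWAT used for single-nucleus work, and they do not say whether it was removed for bulk RNA.

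*Igj* (ENSMUSG00000067149.3) lies on the minus strand of chromosome 5 from 88949537 to 88956916 in NCBIM37 (mm9), the build to which the reads were aligned. *Pou2af1*, which encodes a coactivator that B cells use with the octamer-binding factors, lies on the plus strand of chromosome 9 from 51021795 to 51048184. *Cd79a*, which encodes a signaling chain of the B cell receptor, lies on the plus strand of chromosome 7 from 25682400 to 25687216. *Tnfrsf17*, which encodes BCMA, the receptor through which plasma cells take survival signals from APRIL and BAFF, lies on the plus strand of chromosome 16 from 11313905 to 11320167. The 250 bases upstream of the start of these 4 genes are shown, because they are the members with enough counts to pass the filter. The sequences are from RefSeq on another build, GRCm38.p6, at chr5:88527898-88528147 on the minus strand for *Igj* (named *Jchain* there), chr9:51213440-51213689 on the plus strand for *Pou2af1*, chr7:24897247-24897496 on the plus strand for *Cd79a* and chr16:11313559-11313808 on the plus strand for *Tnfrsf17*. Each is written 5′ to 3′ toward the gene, and capitals mark a motif that was found.
Igj: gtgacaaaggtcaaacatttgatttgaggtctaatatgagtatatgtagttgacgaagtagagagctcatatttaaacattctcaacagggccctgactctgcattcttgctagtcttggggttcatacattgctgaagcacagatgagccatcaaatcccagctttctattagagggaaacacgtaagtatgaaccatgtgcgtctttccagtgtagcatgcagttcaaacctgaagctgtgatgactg
Pou2af1: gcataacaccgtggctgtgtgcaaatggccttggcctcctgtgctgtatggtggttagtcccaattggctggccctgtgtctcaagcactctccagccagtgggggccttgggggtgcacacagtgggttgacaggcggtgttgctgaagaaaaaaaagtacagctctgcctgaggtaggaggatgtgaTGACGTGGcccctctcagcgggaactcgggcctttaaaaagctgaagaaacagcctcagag
Cd79a: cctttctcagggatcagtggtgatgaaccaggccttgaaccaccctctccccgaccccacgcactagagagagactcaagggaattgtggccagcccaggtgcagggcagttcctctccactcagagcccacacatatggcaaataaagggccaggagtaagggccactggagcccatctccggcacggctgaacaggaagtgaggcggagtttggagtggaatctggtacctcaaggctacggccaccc
Tnfrsf17: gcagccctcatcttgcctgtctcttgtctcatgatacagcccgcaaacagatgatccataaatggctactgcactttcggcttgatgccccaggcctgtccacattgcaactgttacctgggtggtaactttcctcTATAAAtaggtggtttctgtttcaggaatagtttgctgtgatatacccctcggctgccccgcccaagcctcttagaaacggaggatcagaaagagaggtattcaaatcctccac

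Of the 9 members, 7 had such a sequence, and *Cd79b* and *Ms4a1* had none. Motifs were searched on both strands and were chosen after the sequences were in hand. The octamer ATGCAAAT is in 1.60% of 32851 promoters of this length and in none of the 7. TGACGTGG, the site of factors of the unfolded protein response, is in 0.563% of promoters and in that of *Pou2af1*, where its first base lies 61 bases before the start. The TATA box letters TATAAA are in 12.4% of promoters and in that of *Tnfrsf17*, 114 bases before the start. CCCNNGGG, the core of the site of the B cell factor EBF1, is in 11.8%, and the composite site of Ets and IRF factors is in 2.30%, and neither was found in the 7. A match describes these letters in this window and says nothing of whether a factor binds there.

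The libraries held between 14470542 and 17882713 counts, and the limit set by a count of 0 was taken as 3 counts, or 0.179 to 0.206 counts per 1000000 of the library (CPM). The targeted gene, *Lexis*, whose row is named *4930412L05Rik*, had 8, 9 and 8 counts in the AdWT-labelled libraries and 21, 11 and 13 in the AdKO-labelled ones (log2 fold change 0.87, standard error 0.381, edgeR adjusted *p* = 0.851). At these low counts it was not lower with the AdKO label, and groups go by their labels here. The study itself reports, from qRT-PCR of tissues, that Cre removed *Lexis* expression from adipose tissues. Markers of white adipocytes, the labelled tissue, had a summed level of 51989 to 63855 CPM in each library, over the 6 of 8 listed genes that have a row. *Fabp4*, *Lpl*, *Lep* and *Adipoq* made nearly all of it in AdWT replicate 1, where *Plin1* and *Pparg* had only 498 and 266 counts. Some genes that every cell uses are listed at 0 or nearly so, such as *Xbp1* and *Ssr4* at 0 in all 6 libraries and *Hspa5* at 11 to 20 counts beside 10003 to 11906 for *Hsp90b1*, so that a 0 in this table is only called listed at 0. In a bulk sample, fewer cells of a type and less RNA per cell cannot be told apart.

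*Igj* had 5172 counts in AdWT replicate 1, 256 in AdWT replicate 2 and 108 in AdWT replicate 3. In the libraries labelled AdKO it had 118, 81 and 208. Scaled to library size, these were 338 CPM in AdWT replicate 1 (95% exact Poisson interval 329 to 348, which like the others here covers counting error only) and 5.34 to 15.3 CPM in the other 5 libraries. AdWT replicate 1 thus stood 22.1-fold over the highest of the others and 41.7-fold over their median, and 87.5% of the summed CPM of *Igj* was in that library. After AdWT replicate 1 the order was AdWT replicate 2 (15.3 CPM, interval 13.5 to 17.3), AdKO replicate 3 (12.5, 10.9 to 14.3), AdKO replicate 1 (8.11, 6.71 to 9.71), AdWT replicate 3 (7.23, 5.93 to 8.72) and AdKO replicate 2 (5.34, 4.24 to 6.63). The intervals of AdWT replicate 2 and AdKO replicate 3 overlapped, as did those of AdKO replicate 1 and AdWT replicate 3 and those of AdWT replicate 3 and AdKO replicate 2, whereas AdKO replicate 3 lay clear of AdKO replicate 1. Outside AdWT replicate 1, libraries of both labels were mixed in this order, and the highest was 2.87-fold over the lowest.

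**Figure D1:**
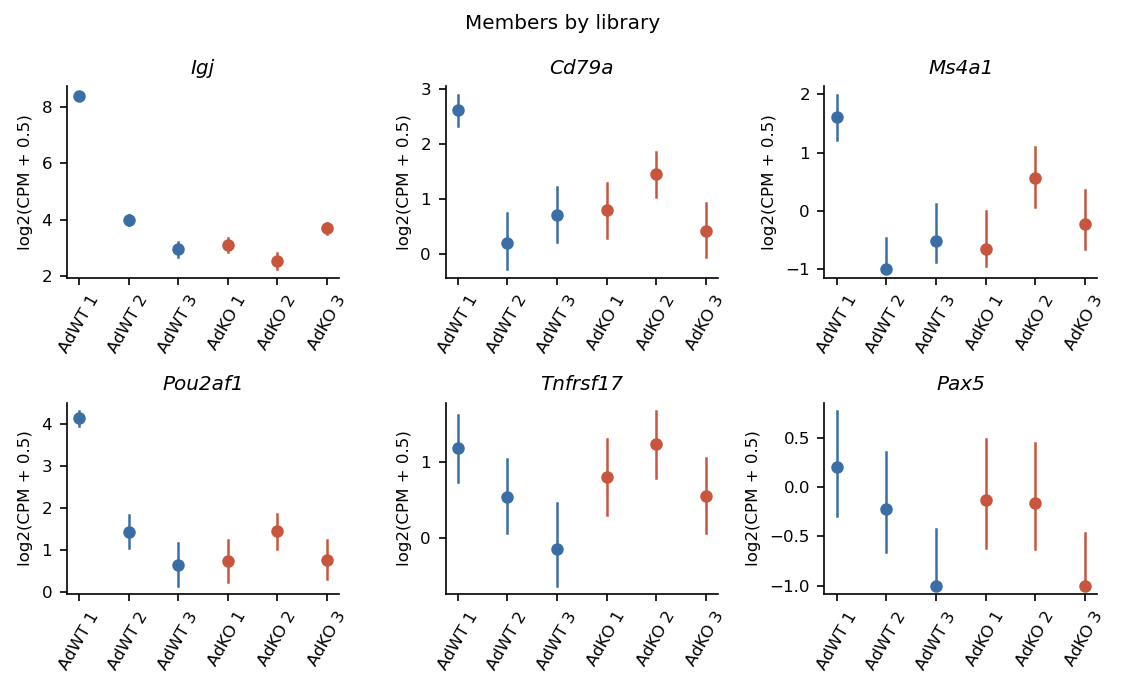
Level of each member with a count above 0, as log2(CPM + 0.5), in each of the 6 libraries (AdWT in blue, AdKO in red), with bars for the 95% exact Poisson interval and each panel on its own scale. *Igj* and *Pou2af1* stood apart in AdWT replicate 1, *Cd79a* and *Ms4a1* were highest there and next in AdKO replicate 2, and *Tnfrsf17* was about level between those 2 libraries.

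The member nearest to *Igj* in this respect was *Pou2af1* (ENSMUSG00000032053.7). It had 260, 37 and 16 counts in the AdWT-labelled libraries and 17, 34 and 20 in the AdKO-labelled ones. AdWT replicate 1, at 17.01 CPM (interval 15.0 to 19.2), stood 7.60-fold over the highest of the other 5, which lay between 1.07 and 2.24 CPM. *Pou2af1* is on in B cells and plasma cells alike, and its difference was smaller in proportion than that of *Igj*. Per kilobase of exon, *Igj* was 28.1-fold over *Pou2af1* in AdWT replicate 1 and 3.37- to 14.7-fold over it in the other 5 libraries.

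*Cd79a* (ENSMUSG00000003379.7), which plasma cells also keep at a lower level, had 86, 11 and 17 counts in the AdWT-labelled libraries and 18, 34 and 14 in the AdKO-labelled ones. AdWT replicate 1, at 5.63 CPM (interval 4.50 to 6.95), was 2.51-fold over the next library, AdKO replicate 2, at 2.24 CPM (interval 1.55 to 3.13). The intervals of these 2 libraries did not overlap, and that of AdKO replicate 2 lay clear of those of AdWT replicate 2 and AdKO replicate 3. Per kilobase of exon, *Igj* was 48.3-fold over *Cd79a* in AdWT replicate 1, and 18.7- and 5.10-fold over it in the other libraries labelled AdWT. In the libraries labelled AdKO it was 5.27-, 1.91- and 11.9-fold over *Cd79a*, so that the lowest ratio was in AdKO replicate 2 and the highest in AdWT replicate 1.

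*Ms4a1* (ENSMUSG00000024673.7, minus strand of chromosome 19 from 11324654 to 11340669) encodes CD20, a surface protein of B cells that plasma cells lose. It had 39, 0 and 3 counts in the AdWT-labelled libraries and 2, 15 and 6 in the AdKO-labelled ones, too few to pass the filter. AdWT replicate 1 was 2.58-fold over AdKO replicate 2, with intervals of 1.81 to 3.49 and 0.553 to 1.63 CPM that did not overlap. *Pax5* (ENSMUSG00000014030.9, minus strand of chromosome 4 from 44544017 to 44724318), the factor that keeps B cells B cells and is turned off in plasma cells, had 10, 6 and 0 counts in the AdWT-labelled libraries and 6, 6 and 0 in the AdKO-labelled ones. It was highest in AdWT replicate 1 by 1.59-fold, within counting error, and no difference among the 4 libraries with a count was detectable at this depth.

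*Tnfrsf17* (ENSMUSG00000022496.5), by background the member most restricted to plasma cells and late B cells, did not follow *Igj*. Its counts were 27, 16 and 6 in the AdWT-labelled libraries and 18, 28 and 16 in the AdKO-labelled ones. It was highest in AdKO replicate 2, at 1.84 CPM (interval 1.23 to 2.67), with AdWT replicate 1 at 1.77 CPM (interval 1.16 to 2.57), a ratio of 0.958 that is within counting error. *Prdm1*, which encodes Blimp1, the master factor of plasma cells (minus strand of chromosome 10 from 44156983 to 44248307), is listed at 0 in all 6 libraries in its 1 row. *Cr2*, the complement receptor of mature B cells and of follicular dendritic cells (minus strand of chromosome 1 from 196963005 to 197002909), is listed at 0 in all 3 of its rows. Nothing is drawn from these zeros.

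Of the 6 members with counts, 5 were highest in AdWT replicate 1 (*Igj*, *Cd79a*, *Ms4a1*, *Pou2af1* and *Pax5*), where 14.6% of the 11416 symbols with at least 10 counts in total were highest. More than 2-fold over the highest other library were *Igj*, *Cd79a*, *Ms4a1* and *Pou2af1*, beside 0.447% of the 11416 symbols. *Igj* was chosen for this pattern and the rest were listed with it known, so these counts are a description. Among the other 5 libraries, *Cd79a*, *Ms4a1*, *Pou2af1* and *Tnfrsf17* were highest in AdKO replicate 2, where 22.6% of the 11416 symbols were highest, although *Pou2af1* was at 2.24 CPM there and at 2.21 in AdWT replicate 2. *Igj* was lowest in that same library. Over all 6 libraries, Pearson's *r* with *Igj* of log2(CPM + 0.5) was 0.94 for *Pou2af1*, 0.74 for *Cd79a*, 0.72 for *Ms4a1*, 0.53 for *Pax5* and 0.40 for *Tnfrsf17*. Over the 5 libraries without AdWT replicate 1 it was 0.041, -0.94, -0.71, -0.15 and -0.27 in the same order, so that the positive values rest on AdWT replicate 1. These are descriptions over few libraries, with no *p*.

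**Figure D2:**
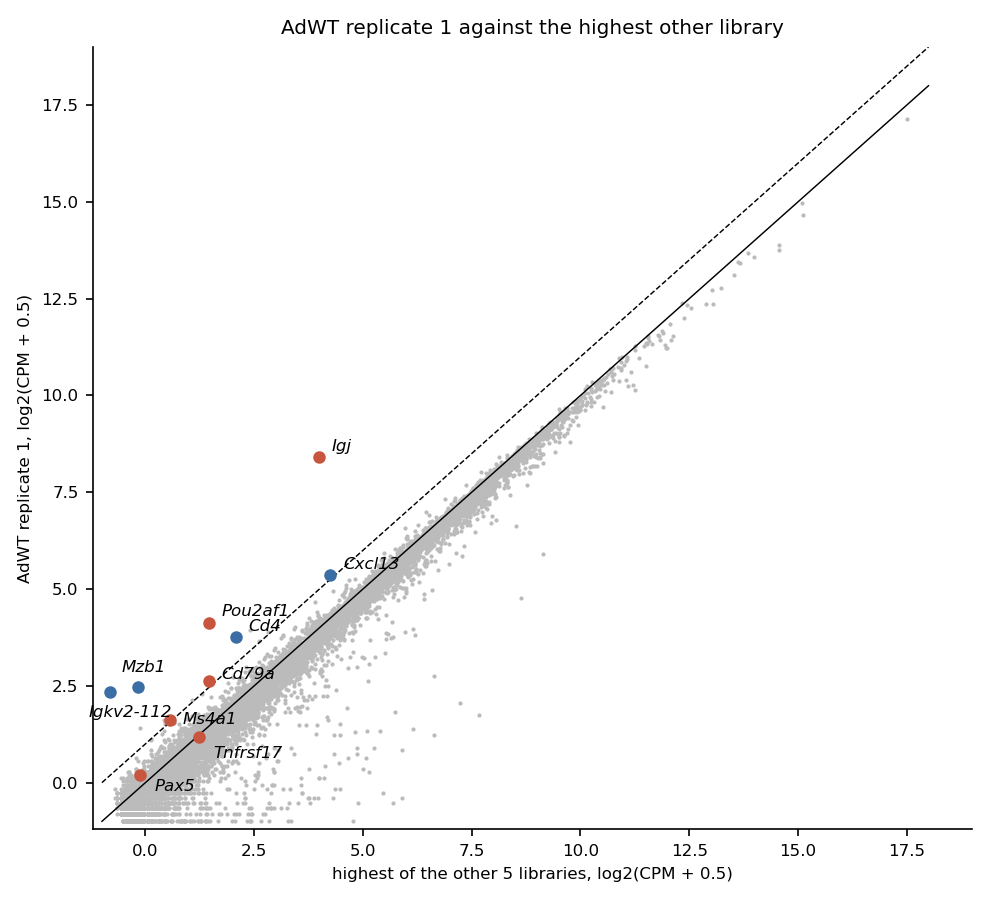
Level in AdWT replicate 1 (vertical) against the highest level in the other 5 libraries (horizontal), both as log2(CPM + 0.5), for the 11416 symbols with at least 10 counts; members are red, other named genes blue and the rest grey, with a solid line at equality and a dashed line near 2-fold. *Igj*, *Pou2af1*, *Mzb1* and *Igkv2-112* lie farthest above the dashed line, and *Tnfrsf17* and *Pax5* lie near equality.

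AdKO and AdWT were compared over all 9872 rows that passed the filter in edgeR (quasi-likelihood *F* test, Benjamini-Hochberg adjusted *p*). No row, and so no member, had an adjusted *p* under 0.05 (0.0% of rows), while 566 rows (5.73%) had an unadjusted *p* under 0.05 and DESeq2 called 17 rows at an adjusted *p* under 0.05. None of the 4 members that passed the filter had groups that did not overlap, beside 11.9% of rows. *Cd79a* was at 2.47 ± 2.74 CPM (SD, n = 3) in AdWT and 1.44 ± 0.721 in AdKO (log2 fold change -0.78, standard error 0.784, edgeR adjusted *p* = 0.885). *Pou2af1* was at 6.76 ± 8.89 CPM in AdWT and 1.54 ± 0.609 in AdKO (log2 fold change -2.13, standard error 0.972, edgeR adjusted *p* = 0.851). *Tnfrsf17* was at 1.04 ± 0.687 CPM in AdWT and 1.35 ± 0.452 in AdKO (log2 fold change 0.36, standard error 0.505, edgeR adjusted *p* = 0.904). In none of these 3 genes was the difference between groups larger than the spread between replicates.

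Leaving out AdWT replicate 1 reversed *Cd79a* and brought *Pou2af1* close to 0. Without that library, the log2 fold change of *Cd79a* went from -0.78 to 0.68 (edgeR adjusted *p* = 0.613) and that of *Pou2af1* from -2.13 to -0.10 (edgeR adjusted *p* = 0.941). *Tnfrsf17* went to 0.96 (edgeR adjusted *p* = 0.480), and without AdWT replicate 3 in its place to -0.019. *Igj*, which has no test here, was at 120 ± 189 CPM (SD, n = 3) in AdWT and 8.65 ± 3.61 in AdKO, and its fitted log2 fold change of -3.79 became -0.38 without AdWT replicate 1.

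**Figure D3:**
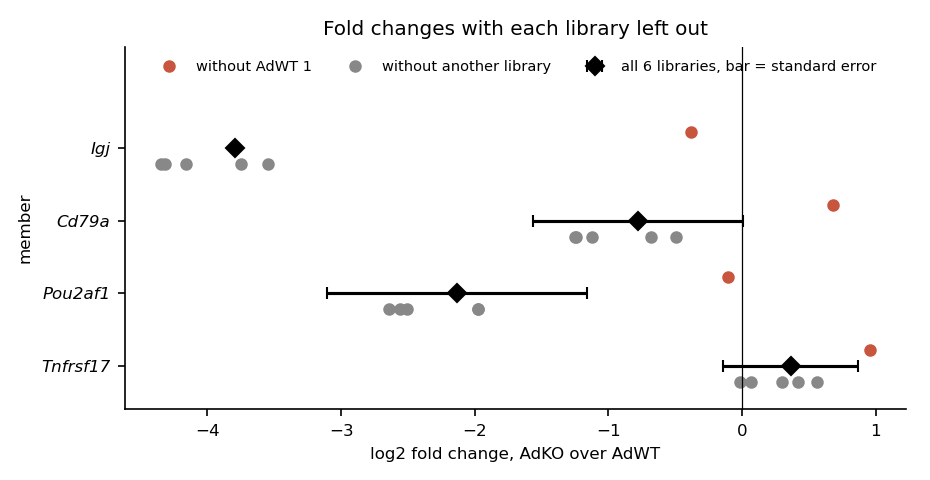
Log2 fold change of the 4 members that passed the filter, as AdKO over AdWT, with all 6 libraries (black, with a bar for the standard error except for *Igj*, which has no test), without AdWT replicate 1 (red) and without each other library (grey). *Igj* and *Pou2af1* moved close to 0 and *Cd79a* changed sign without AdWT replicate 1, while *Tnfrsf17* lay between -0.019 and 0.96.

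Most listed antibody chains could not be read, and *Ighm*, which could, did not share the step of *Igj* in AdWT replicate 1. Of 24 listed symbols, 3 had a row. Those without a row include the light chain constant genes *Igkc*, *Iglc1*, *Iglc2* and *Iglc3*. The heavy chain genes *Ighg1*, *Ighg2b* and *Ighg2c* had no row either. Whether antibody chains as a whole were higher in AdWT replicate 1 was therefore not measured. *Ighm*, the heavy chain of IgM, had 686, 942 and 783 counts in the AdWT-labelled libraries and 690, 787 and 635 in the AdKO-labelled ones, and it was highest in AdWT replicate 2 (log2 fold change -0.16, standard error 0.136, edgeR adjusted *p* = 0.873). Per kilobase of exon, *Igj* was 5.68-fold over *Ighm* in AdWT replicate 1 and 0.0776- to 0.247-fold of it in the other 5 libraries. *Ighg3*, a heavy chain of IgG, had 4 counts, all in AdWT replicate 1, which is near the floor, and *Igha*, the heavy chain of IgA, is listed at 0. The kappa variable segment *Igkv2-112*, which is not on the list and is named because it ranked highest for its level in AdWT replicate 1 over the other libraries, had 70 counts there and 2 in the other 5 libraries together. Rows of single variable segments can share reads with close copies, and the counting of such reads is not stated in the sources used here.

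Of the listed plasma cell genes that are not members, *Mzb1* shared the step of *Igj* in AdWT replicate 1 and the others that could be read did not. *Bhlha15*, a plasma cell gene not on the list and named after its values were seen, was also higher there. It stood at 2.16 CPM in AdWT replicate 1 and at most 0.421 CPM in any other library. Of 16 listed genes, 13 had a row, 6 had at least 10 counts and 5 were tested, of which 3 were higher and 2 lower in AdKO (median log2 fold change 0.049, between -0.024 without AdKO replicate 1 and 0.10 without AdKO replicate 2, beside 0.0071 over all rows) and none passed the test. *Mzb1*, which helps antibody fold and assemble in the endoplasmic reticulum, had 77 counts in AdWT replicate 1 and 3 to 6 in each other library, 12.7-fold over the highest of them. *Sdc1*, whose product CD138 marks plasma cells and also epithelia, had 54, 29 and 28 counts in the AdWT-labelled libraries and 50, 39 and 56 in the AdKO-labelled ones. *Ell2*, an elongation factor that plasma cells use to switch to the secreted form of antibody, had 13, 12 and 12 counts against 7, 3 and 9. *Creld2* and *Tmed4*, of the general secretory pathway, stood in AdWT replicate 1 at 0.882- and 0.954-fold of the highest other library. *Irf4* and *Derl3* are listed at 0, as is *Xbp1*, the factor of the secretory program. The summed level of the list was 225 CPM in AdWT replicate 1 and 209 to 221 in the others, but *Tmed4* and *Creld2* make most of it, so that it cannot show a step in genes as low as *Mzb1*.

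Genes of mature B cells showed no step of that size in AdWT replicate 1, and AdKO replicate 2 was close to it or above it in several. All 22 listed genes had a row, 12 had at least 10 counts, and of the 9 tested 6 were higher and 3 lower in AdKO (median log2 fold change 0.34) with none past the test. The median turned on single libraries, at 0.61 without AdWT replicate 1 (9 higher and 0 lower), 0.072 without AdWT replicate 2 (5 and 5), -0.0049 without AdWT replicate 3 (5 and 6), 0.217 without AdKO replicate 1 (8 and 3) and 0.024 without AdKO replicate 2 (5 and 5). Of the 12, 4 were highest in AdWT replicate 1 (14.6% of all symbols with at least 10 counts), none by more than 2-fold (0.447%), and 6 were highest in AdKO replicate 2 among the other 5 libraries (22.6%). *Spib*, an Ets factor of B cells and plasmacytoid dendritic cells, had 29, 10 and 9 counts in the AdWT-labelled libraries and 6, 18 and 13 in the AdKO-labelled ones. *Fcmr*, the receptor for IgM, had 22, 9 and 7 counts against 8, 22 and 5, so that AdWT replicate 1 and AdKO replicate 2 were level. *Ikzf3*, *Bach2* and *Ly6d* stood in AdWT replicate 1 at 1.46-, 1.16- and 1.05-fold of the highest other library. *Siglecg*, an inhibitory receptor of B cells, and *Cxcr5*, the receptor that draws B cells into follicles, which were picked after their values were seen, were highest in AdKO replicate 2, with 36 and 43 counts beside 28 and 30 in AdWT replicate 1. The summed level was 62.9 CPM in AdWT replicate 1 and 29.2 to 57.4 in the others.

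**Figure D4:**
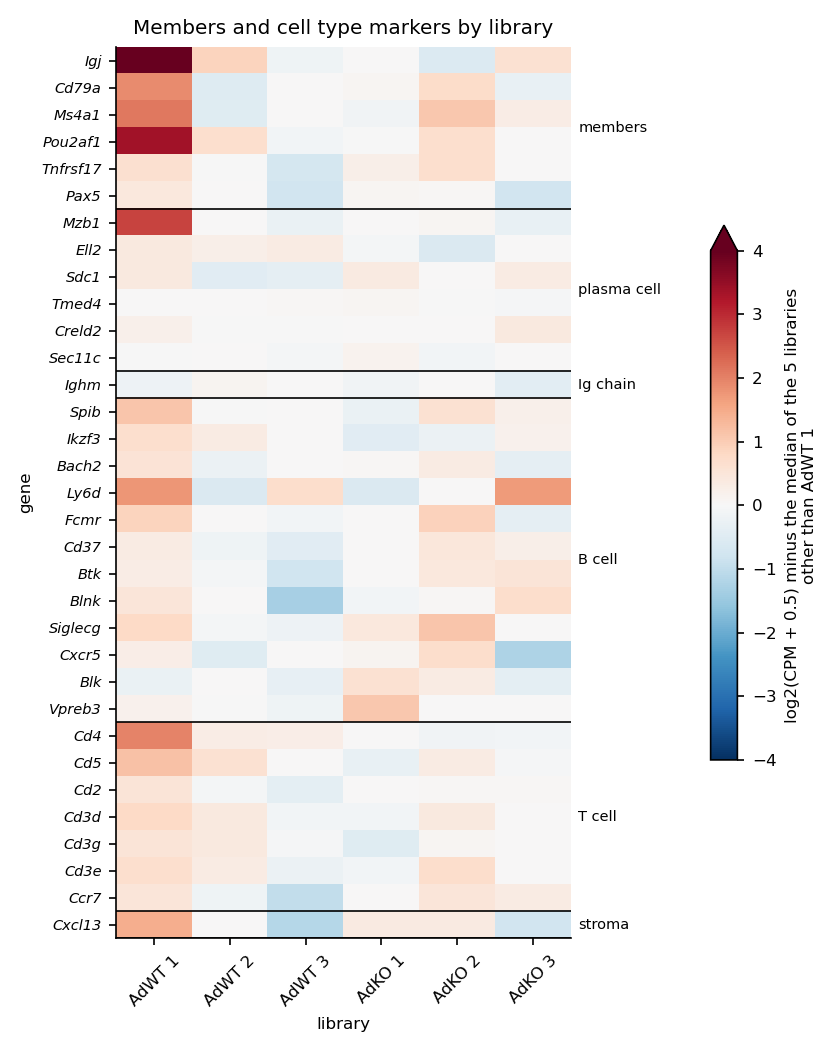
Difference in log2(CPM + 0.5) between each library and the median of the 5 libraries other than AdWT replicate 1, for members, plasma cell genes, *Ighm*, B cell genes, T cell genes and *Cxcl13*, with red for higher and blue for lower and the scale ending at 4. *Igj*, *Pou2af1* and *Mzb1* are deep red in AdWT replicate 1 and much paler elsewhere, whereas *Fcmr* and *Siglecg* are pale red in both AdWT replicate 1 and AdKO replicate 2.

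The pathway downstream of the B cell receptor and that of germinal centers showed no such step in AdWT replicate 1. Of 18 genes of receptor signaling, 14 had a row and 7 were tested, with 6 higher and 1 lower in AdKO (median log2 fold change 0.32) and none past the test. That median was 0.65 without AdWT replicate 1, 0.48 without AdKO replicate 1, 0.18 without AdKO replicate 3 and 0.021 without AdWT replicate 3 (4 higher and 3 lower). The summed level was 120 CPM in AdWT replicate 1 and 51.8 to 125 in the others. Many of these genes also act in macrophages and T cells. *Pik3ap1*, an adaptor, and *Prkcb*, a kinase of the pathway, stood in AdWT replicate 1 at 1.01- and 0.968-fold of the highest other library. *Vav1* and *Syk* had 0 to 7 counts a library. Among 6 germinal center genes, 5 had a row and 2 were tested, both higher in AdKO and neither past the test. *Bcl6* and *S1pr2*, which other cells of fat also use, stood in AdWT replicate 1 at 0.416- and 0.813-fold of the highest other library.

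Ligands and niche factors of plasma cells were not highest in AdWT replicate 1. Of 8 listed genes, 7 had a row and 2 were tested, 1 higher and 1 lower in AdKO and neither past the test. *Cxcl12*, the chemokine that holds plasma cells in their niche, had 2222, 1960 and 1022 counts in the AdWT-labelled libraries and 2223, 2884 and 2404 in the AdKO-labelled ones (log2 fold change 0.56, standard error 0.253, edgeR adjusted *p* = 0.851). *Tnfsf13b*, which encodes BAFF, had 0 to 5 counts a library, and *Tnfsf13*, which encodes APRIL, is listed at 0. *Pigr*, the receptor that carries joining chain and antibody across epithelia, had 14, 24 and 319 counts in the AdWT-labelled libraries and 10, 14 and 168 in the AdKO-labelled ones (log2 fold change -0.995, standard error 1.34, edgeR adjusted *p* = 0.900). Its high libraries, AdWT replicate 3 and AdKO replicate 3, were also those with the highest summed level of 12 epithelial genes, 20.4 and 48.7 CPM beside 0.962 to 1.505 in the other 4, AdWT replicate 1 included.

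Markers of a lymph node that had a row had at most 6 counts a library, with 1 exception. Of 13 genes of its stroma and high endothelial venules, 11 had a row, 3 had at least 10 counts and 1 was tested. *Glycam1*, of the high endothelial venules, and *Ccl21b* had no row and were not read. How reads shared by *Ccl21a* and its close copies were counted is not stated in the sources used here. Whether a node was present was not tested. *Ccl21a*, the chemokine of the T cell zone and of lymphatic vessels, had 2 counts in AdWT replicate 1, 1 in AdKO replicate 2 and 0 in the other 4 libraries. *Ccl19*, *Ccl21c* and *Fut7* are listed at 0, *Madcam1* had 0 counts in AdWT replicate 1 and 3 in the other 5 libraries together, *Chst4* and *Fdcsp* had 1 count each, both outside AdWT replicate 1, and *Ltb* had 0 to 2 counts a library. *Lta* had 4 to 6 counts and *Tnfsf11* 1 to 5 in each library. *Cxcl13*, the chemokine that draws B cells into follicles, which macrophages also make, had 619, 241 and 94 counts in the AdWT-labelled libraries and 269, 282 and 137 in the AdKO-labelled ones. AdWT replicate 1 was 2.18-fold over the highest other library, the groups overlapped, and the fitted log2 difference was -0.44 (standard error 0.628, edgeR adjusted *p* = 0.904). *Cxcl13* made nearly all of the summed level of the list, 41.3 CPM in AdWT replicate 1 and 7.03 to 19.2 in the others.

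T cell genes, which a lymph node holds in number, were at most modestly higher in AdWT replicate 1 apart from *Cd4*. Of 21 listed genes, 17 had a row and 11 were tested, with 5 higher and 6 lower in AdKO (median log2 fold change -0.029) and none past the test, and with each library left out the median lay between -0.28 without AdWT replicate 3 (4 higher and 7 lower) and 0.19 without AdWT replicate 1 (7 and 4), with its sign also turned without AdKO replicate 1 (0.085) and AdKO replicate 3 (0.068). *Cd4*, the coreceptor of helper T cells, had 200, 62 and 55 counts in the AdWT-labelled libraries and 43, 40 and 45 in the AdKO-labelled ones. Every library labelled AdWT was above every library labelled AdKO in CPM, AdWT replicate 1 was 3.53-fold over the next, and the fitted log2 difference was -1.30 (standard error 0.509, edgeR adjusted *p* = 0.851), with an unadjusted *p* under 0.05 as in 5.73% of rows. The chains of the T cell receptor complex moved less. *Cd3d*, *Cd3g* and *Cd3e* stood in AdWT replicate 1 at 1.37-, 1.11- and 0.959-fold of the highest other library, *Cd5* and *Cd2* at 1.52- and 1.51-fold. *Ccr7*, which guides cells to lymph nodes, had 59 counts in both AdWT replicate 1 and AdKO replicate 2. The summed level was 56.3 CPM in AdWT replicate 1 and 27.9 to 44.1 in the others.

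Plasmacytoid dendritic cells, which carry the joining chain in humans, were read from 7 genes, of which 5 had a row and 2 were tested. *Siglech* and *Ccr9* are listed at 0, *Pld4* had 53, 34 and 22 counts in the AdWT-labelled libraries and 18, 36 and 49 in the AdKO-labelled ones, and *Bst2*, an interferon-induced gene of many cells, was 1.31-fold higher in AdWT replicate 1 than in the next library. *Tcf4*, their master factor, had 4 to 12 counts a library. The summed level, mostly *Bst2*, was 124 CPM in AdWT replicate 1 and 76.4 to 93.2 in the others. Macrophage genes summed to 1689 CPM in AdWT replicate 1 and 943 to 1792 in the others, with 8 of 12 tested, 6 higher and 2 lower in AdKO (median log2 fold change 0.37, but 0.57 without AdWT replicate 1 and 0.12 without AdWT replicate 3) and none past the test. Adipocyte genes had 2 higher and 4 lower in AdKO of 6 tested (median log2 fold change -0.16, and -0.096 without AdKO replicate 3). Skeletal muscle genes summed to 34.7 CPM in AdWT replicate 1, 166 in AdWT replicate 2 and 2.90 to 12.4 in the other 4. Of the 5 tested, 5 were lower in AdKO (median log2 fold change -4.89), each at an unadjusted *p* under 0.05 (5.73% of all rows) and none past the test. The list summed to 2.90 to 3.49 CPM in the libraries labelled AdKO, and its genes could pass the filter through the libraries labelled AdWT alone. Their shared direction is therefore a description and not a test. The part of these other tissues in the levels of the members was not tested.

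**Figure D5:**
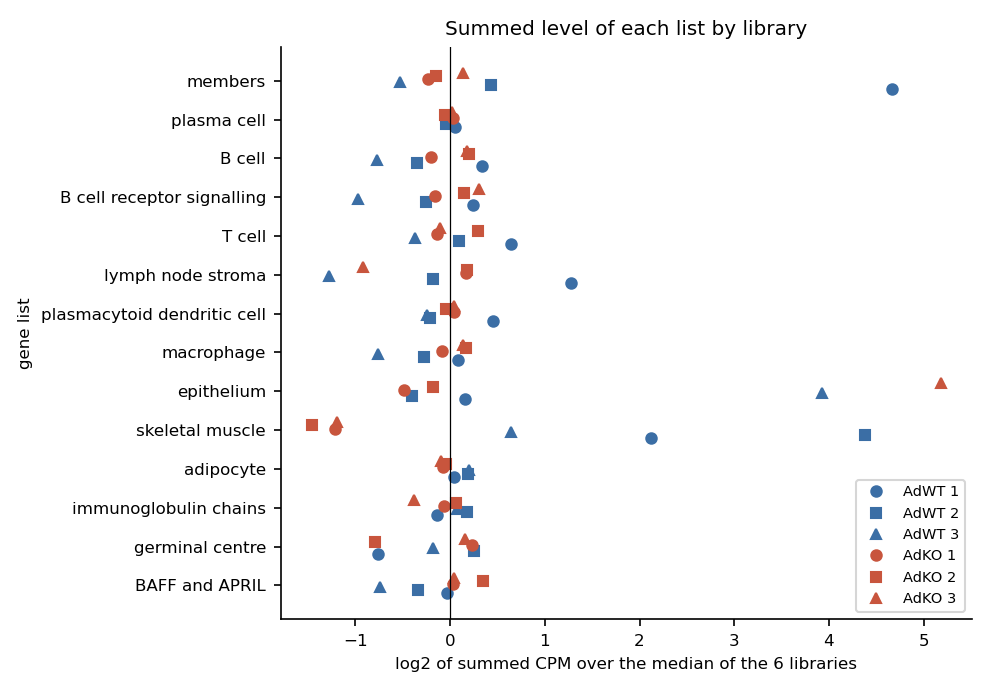
Summed CPM of each gene list in each library, as log2 over the median of the 6 libraries (AdWT in blue, AdKO in red; circle, square and triangle for replicates 1, 2 and 3). The members, carried by *Igj*, reach 366 CPM in AdWT replicate 1 beside 10.04 to 19.5 elsewhere, while the plasma cell sum is set by *Tmed4* and *Creld2*, of the general secretory pathway, and does not show the step of *Mzb1*, and the epithelial and muscle lists are high in other libraries.

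Ranked over the 6153 symbols with at least 50 counts in AdWT replicate 1, the genes that stood highest there over the highest other library were *Igkv2-112* (with 2 counts elsewhere), *Igj*, *Mzb1*, *Pou2af1*, *Cd4* and *Tgtp2* (3.12-fold), and then *Cd79a*, *S1pr5* (2.44-fold), *Cldn19* (2.22-fold) and *Cxcl13*. The order is a description, since the symbols were filtered and ranked on AdWT replicate 1, and *Igj* was chosen for its value there. *Tgtp2*, an interferon-induced GTPase, had 228 counts in AdWT replicate 1 and 58 to 80 in the others. *S1pr5*, a receptor of natural killer cells and of cells that patrol vessels, had 60 counts there and 13 to 24 elsewhere. The rows whose log2(CPM + 0.5) correlated best with *Igj* over the 6 libraries were *2810029C07Rik*, *Ly6c2*, *Hps1*, *3830403N18Rik*, *Tgtp2*, *Cd4*, *Fa2h*, *Scaf1*, *Hspa4* and *Ergic1*, with Pearson's *r* from 0.99 down to 0.95 among 9871 rows searched. Over the other 5 libraries *r* for these rows lay between -0.26 and 0.80, and all shared the high value in AdWT replicate 1. *Ly6c2*, a surface protein of monocytes, some T cells and plasma cells, kept 0.77, with 185 counts in AdWT replicate 1 and 63 to 93 in the others, a 2.18-fold step.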

How the data were processed

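RNA from iWAT of 3 *Lexis*-AdWT and 3 *Lexis*-AdKO mice was sequenced with a stranded kit. Raw counts, not normalized, were deposited as 1 table of 37024 rows, made by the authors from reads mapped to mm9 by HISAT2. The counting tool, its strand setting and its treatment of reads shared by several rows are not given in the sources used here. For a symbol with more than 1 row, that of the highest total was used. Total counts were 14708282, 17882713 and 15331670 in AdWT and 14470542, 15196777 and 15982848 in AdKO, and columns of no sample numbered 0. None of the 6 pairs of libraries within a group was a duplicate.

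Groups were compared with edgeR 4.0.16 (glmQLFit and glmQLFTest, filterByExpr, TMM scaling, Benjamini-Hochberg adjustment, threshold 0.05) in R 4.3.3 with limma 3.58.1. The standard error is the log2 fold change over the square root of *F*. CPM used the TMM-scaled library size, with 0.5 added before logs, and levels per kilobase used exon lengths of GENCODE vM1. Other steps used Python 3.11.15, with pandas 2.3.3 and numpy 2.4.6 for tables, scipy 1.17.1 for intervals and matplotlib 3.10.9 for plots. The code was tested on simulated data. The study calls its samples biological replicates, and *p* measures the spread between these samples.

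The members and the 13 gene lists (antibody chains, plasma cell, B cell, germinal center, B cell receptor signaling, BAFF and APRIL, T cell, lymph node stroma, plasmacytoid dendritic cell, macrophage, epithelium, adipocyte and skeletal muscle) were chosen with earlier results of these data known. Named were all members, the genes of each list with at least 10 counts that stood highest in AdWT replicate 1 over the other libraries (at most 5) or had an unadjusted *p* under 0.05, the 10 rows most correlated with *Igj*, and the 10 symbols with at least 50 counts in AdWT replicate 1 that stood highest there. Genes with fewer counts are named where they define a cell type. Alternatives were DESeq2 1.42.0 with its defaults, a robust fit, scaling by library size, upper quartile or RLE, a filter of 10 counts in every library or of 1 in any library, the replicate block, rows of a symbol summed, and each library left out. Some results for single genes are left out here.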

Additional observations from a re-analysis of the deposited data

How the results depend on the processing

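Rows with an adjusted *p* under 0.05 numbered 0 with edgeR, 17 with DESeq2 and 1 under the loosest filter (1 count in any library), and their number lay between 0 and 1 with each library left out, the higher value without AdKO replicate 3. At an unadjusted *p* under 0.05 the number was 566, and with each library left out it lay between 329 (without AdWT replicate 2) and 1208 (without AdWT replicate 1). The cause was not tested. With each library left out, the log2 fold change of *Igj* lay between -4.35 and -0.38, that of *Cd79a* between -1.25 and 0.68, that of *Pou2af1* between -2.64 and -0.10 and that of *Tnfrsf17* between -0.019 and 0.96. The reversals were those of *Cd79a* without AdWT replicate 1 (0.68) and of *Tnfrsf17* without AdWT replicate 3 (-0.019). The median of the skeletal muscle list went from -4.89 to -3.43 without AdWT replicate 2 and lay between -5.39 and -3.43 over all such fits. Scaling, the robust fit and the summing of rows changed the direction of none of the 4 members that passed the filter.

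Libraries that share a number had deviations correlated at -0.076 (replicate 1), -0.13 (replicate 2) and 0.33 (replicate 3), and the samples were not taken as paired. Of the 9 pairs across groups, AdWT replicate 1 with AdKO replicate 2 had the highest correlation (0.41), and AdWT replicate 2 with AdKO replicate 1 had 0.17. With the replicate block, 418 rows had an unadjusted *p* under 0.05 and the log2 fold change was -2.03 for *Igj*, -1.32 for *Pou2af1*, -0.42 for *Cd79a* and 0.47 for *Tnfrsf17*.

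Counts of the members other than *Igj* were 0 to 86 a library, or up to 260 for *Pou2af1*, so that differences under about the width of their intervals were not detectable, and 1 library carried the pattern with no replicate of it.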
